A study of Rattus norvegicus with 4 samples.

Results

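The genes described here are 8 male germ cell genes, grouped as synaptonemal complex and spermatocyte genes. The spermatocyte is the male germ cell that is passing through meiosis, and not all 8 are markers of that cell alone. They are Sycp1, Sycp2 and Sycp3 of the synaptonemal complex, the testis forms of metabolic and signalling enzymes Pdha2, Ldhc and Ppp3r2, the chaperone gene Hspa2, and Tcp11. They were chosen by name, with earlier results of these data known. Every probe set (the group of short probes that reads 1 transcript) annotated with just 1 of these symbols was taken. Each gene had 1 such probe set, so 8 of 7006 named probe sets, and 8 of 4736 named genes, are described. The values come from whole rat testis on an Affymetrix Rat Genome U34 array. All rats were on a diet without vitamin A from 20 days of age and for 9 weeks. The groups were untreated vitamin A-deficient testis (VAD, 0 h) and deficient testis 4 h, 8 h and 24 h after retinol, the alcohol form of vitamin A. Each group is 1 deposited sample, called an array here. The sources used here do not give the number of animals behind it, any pooling of them, the strain or the dose. No test between groups can be made with 1 array in each, and no difference below has a replicate check.

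During meiosis homologous chromosomes are held together by the synaptonemal complex. Sycp2 and Sycp3 build its lateral elements, and Sycp1 forms the transverse filaments that bridge them. Spermatocytes at the pachytene stage switch on testis forms of common enzymes, several of which replace forms encoded on the silenced X chromosome. In vitamin A deficiency spermatogenesis stops at spermatogonia and the earliest spermatocytes, and retinol lets these cells enter meiosis again over days. Tcp11 and Ppp3r2 are known in mouse mainly from the later, haploid cells and sperm, so the 8 genes span several germ cell steps.

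The 3 genes that passed a 2-fold change in any comparison were Pdha2, Tcp11 and Ldhc, and their promoters are shown because the results turn on them. Each window runs from 250 bases before to 50 after the RefSeq start of the gene (GRCr8). Capitals mark, on either strand, TGACG (one arm of the cAMP response element), AACGG (a core read by MYB factors) and GGGCGG (the GC box of SP factors). GC boxes overlap each other near the Tcp11 start.
Pdha2, chr2:232547049-232547348, minus strand: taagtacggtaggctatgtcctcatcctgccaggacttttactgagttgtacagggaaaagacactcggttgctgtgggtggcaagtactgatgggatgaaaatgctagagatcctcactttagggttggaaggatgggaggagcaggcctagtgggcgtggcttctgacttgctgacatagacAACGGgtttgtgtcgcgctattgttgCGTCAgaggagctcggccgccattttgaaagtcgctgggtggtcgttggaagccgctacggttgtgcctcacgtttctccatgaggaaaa
Ldhc, chr1:106522745-106523044, plus strand: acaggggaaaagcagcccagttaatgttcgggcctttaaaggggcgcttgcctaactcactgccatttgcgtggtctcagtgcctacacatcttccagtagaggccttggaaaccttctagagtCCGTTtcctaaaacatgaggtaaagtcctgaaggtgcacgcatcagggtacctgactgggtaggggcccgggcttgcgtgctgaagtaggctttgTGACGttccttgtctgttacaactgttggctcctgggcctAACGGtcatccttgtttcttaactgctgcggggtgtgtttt
Tcp11, chr20:6137596-6137895, minus strand: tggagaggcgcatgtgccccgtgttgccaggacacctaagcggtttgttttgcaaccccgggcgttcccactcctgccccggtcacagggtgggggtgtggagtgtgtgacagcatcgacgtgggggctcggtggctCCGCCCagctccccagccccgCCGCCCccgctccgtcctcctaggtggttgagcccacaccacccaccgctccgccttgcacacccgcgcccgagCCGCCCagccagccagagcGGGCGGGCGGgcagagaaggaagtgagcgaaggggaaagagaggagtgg

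The windows of Pdha2 and Ldhc each held TGACG close to the start, 40 and 31 bases upstream, and both held AACGG. The Tcp11 window held neither and had 5 GC boxes. Over the 8 genes, AACGG was found in 7 windows, all but that of Tcp11, against 17.3% of all 33469 promoter windows and 21.0% of the 3879 windows of genes named on the array. MYBL1, a MYB factor, is known in mouse as an activator of pachytene genes. The motif was taken up after these windows had been read, so its count is a description only. TGACG was in 3 of 8 windows (21.2% of all and 28.5% of those of genes on the array) and GGGCGG in 4 of 8 (33.1% and 56.2%). The full palindrome TGACGTCA was in 0 of 8 windows (1.83% and 2.42%). CACGTG, the palindromic E-box, was in the Sycp3 window alone, 85 and 64 bases upstream of the start (6.42% and 8.48%). AGGTCA, the half-site read by retinoic acid receptors and other nuclear receptors, was in 0 of 8 (16.2% and 13.5%). The GC content of the 8 windows lay between 52.3% and 69.7%, and the median over genes named on the array was 60.0%. A match is a run of letters and not a shown binding site.

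The values are linear ratios per probe set, and the sources used here do not give their reference. They carry no signal level, so a weak transcript cannot be told from a strong one, the presence of spermatocytes cannot be read from marker levels, and levels cannot be compared between genes. Column medians over all 8799 probe sets were 0.995 for VAD and 0.934, 0.923 and 0.922 at 4 h, 8 h and 24 h. Changes are log2 differences between 2 arrays. As a measure of error, the noise of 1 probe set was taken from 967 genes read by probe sets from different database sequences. It was 0.43, 0.52 and 0.58 at 4 h, 8 h and 24 h against VAD, 0.33 between 8 h and 4 h, and 0.33 between 24 h and 8 h. It leaves out the spread between animals. In whole testis, fewer cells of a type and less RNA per cell cannot be told apart.

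Of the synaptonemal complex genes, Sycp3 had ratios of 1.13 on the VAD array, 1.73 at 4 h, 0.977 at 8 h and 0.942 at 24 h. The 4 h array stood above the rest, which lay within a narrow band. Sycp3 was 0.62 higher at 4 h than in VAD (1.54-fold, 1.45 times the noise), and 0.83 lower at 8 h than at 4 h, or 1.77-fold lower. Only 1.78% of named probe sets had a more negative difference between 8 h and 4 h.

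Its lateral element partner Sycp2 had ratios of 1.27 (VAD), 1.66 (4 h), 1.14 (8 h) and 1.46 (24 h). Sycp1, the transverse filament gene, had 1.13 (VAD), 1.32 (4 h), 0.990 (8 h) and 1.55 (24 h). For both genes the 8 h array was the lowest and the 24 h array was above VAD. In Sycp3 the 24 h ratio was the lowest. Between 24 h and 8 h Sycp1 was 0.65 higher (1.98 times the noise), a difference exceeded by 3.10% of named probe sets, and Sycp2 0.37 higher. Sycp3 was at -0.05 in the same comparison. Whether these 3 genes differ from each other was not tested, since each is read by 1 probe set on 1 array per time.

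Pdha2 encodes the testis alpha subunit of pyruvate dehydrogenase, which feeds pyruvate into the citric acid cycle. Its ratios were 1.12 on the VAD array, 2.26 at 4 h, 1.67 at 8 h and 1.80 at 24 h. VAD was the lowest of the 4 arrays, and each retinol array stood above it. The change against VAD was 1.01 at 4 h (2.02-fold), 0.58 at 8 h and 0.68 at 24 h, or 2.37, 1.10 and 1.18 times the noise. It was the 1 gene of the 8 past 2-fold against VAD, where 2.21% of named probe sets were at least 2-fold higher at 4 h.

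Ppp3r2 encodes the testis form of the regulatory B subunit of calcineurin, a calcium-dependent phosphatase. Its ratios were 1.52 on the VAD array, 2.86 at 4 h, 2.54 at 8 h and 2.30 at 24 h. All 3 retinol arrays were above VAD, with the 4 h array highest. The changes were 0.91, 0.74 and 0.59, or 2.13, 1.41 and 1.02 times the noise. Ppp3r2 and Pdha2 were the 2 genes of the 8 that stood above VAD at all 3 times.

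Ldhc encodes the lactate dehydrogenase subunit of spermatocytes and sperm. It had ratios of 1.88 on the VAD array, 2.87 at 4 h, 1.32 at 8 h and 1.16 at 24 h. Its VAD ratio exceeded that of 99.8% of named probe sets. In 7 of the 8 genes the VAD ratio was above 1, as in 48.1% of named probe sets, and in Ldhc VAD stood furthest from the unstated reference. Ldhc was 0.61 higher at 4 h than in VAD, and it was at -0.51 at 8 h and -0.70 at 24 h, although its ratio was above 1 on every array. Between 8 h and 4 h it was 2.17-fold lower (-1.11, 3.34 times the noise). From its highest ratio at 4 h to its lowest at 24 h Ldhc spanned 2.48-fold.

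Tcp11, a gene of the t-complex with a role in mouse sperm motility, had ratios of 1.27 (VAD), 2.06 (4 h), 0.971 (8 h) and 0.805 (24 h). The 4 h array was the highest and the 24 h array the lowest, as for Ldhc. It was 0.69 higher at 4 h than in VAD, and at -0.39 and -0.66 at 8 h and 24 h. Between 8 h and 4 h it was 2.12-fold lower (-1.08, 3.24 times the noise). From its highest ratio at 4 h to its lowest at 24 h Tcp11 spanned 2.55-fold.

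Hspa2, a chaperone that mouse spermatocytes need to complete meiosis, moved least at 4 h. Its ratios were 0.994 on the VAD array, 1.09 at 4 h, 0.886 at 8 h and 0.748 at 24 h. The changes of 0.13, -0.17 and -0.41 against VAD were all within the noise of 1 probe set. It was the only gene of the 8 with a VAD ratio within 10% of 1, where 60.4% of named probe sets lay.

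**Figure D1:**
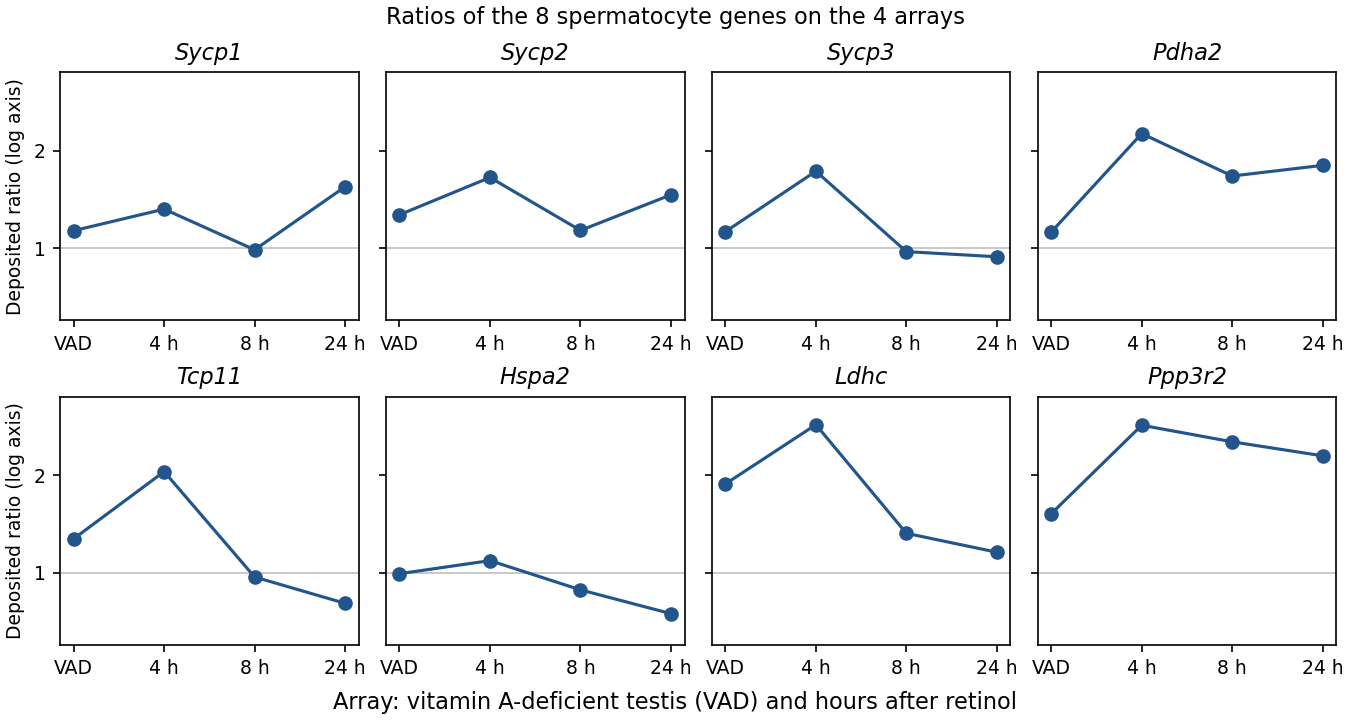
Deposited ratio of each gene's probe set (log axis) on the VAD array and 4, 8 and 24 h after retinol, 1 point per array and no error bars because each group is 1 array. The 4 h array is the highest in 7 panels; Sycp1 is highest at 24 h (1.55), and Ppp3r2 and Pdha2 stay above their VAD ratios throughout.

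Because the 8 genes were chosen with earlier results of these data known, their counts as a group are a description only. All 8 were higher at 4 h than in VAD, where 40.6% of named probe sets were higher and 59.3% lower. Their median change was 0.61, against -0.09 over all named probe sets, and 5 of the 8 exceeded the noise, as did 29.8% of named probe sets in either direction. At 8 h 2 were higher than VAD and 6 lower, against 40.1% and 59.8% of named probe sets. The median was -0.18, close to the -0.11 of all probe sets. At 24 h 4 were higher and 4 lower (41.4% and 58.5% of named probe sets), from -0.70 for Ldhc to 0.68 for Pdha2, with a median of -0.03 against -0.11. None of the 8 passed 2-fold in either direction at 8 h or at 24 h. Of named probe sets, 4.04% passed 2-fold upward and 2.53% downward at 8 h, and 4.68% and 3.41% did so at 24 h.

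All 8 genes were lower at 8 h than at 4 h, where 54.6% of named probe sets were lower and 45.1% higher. The median was -0.49, against -0.03 over all named probe sets, and the range ran from -1.11 for Ldhc to -0.17 for Ppp3r2. Ldhc and Tcp11 were at least 2-fold lower, as were 1.04% of named probe sets. The 4 h array enters this comparison and that of 4 h against VAD, so the 2 are not independent of each other. The 4 h array gave the highest ratio for 7 of the 8 genes and for 15.3% of named probe sets. In 4 genes, Sycp3, Tcp11, Hspa2 and Ldhc, the arrays ran from highest to lowest in the order 4 h, VAD, 8 h, 24 h, a pattern noted after the values were seen, as in 3.78% of named probe sets. Between 24 h and 8 h, 3 genes were higher (Sycp1, Sycp2 and Pdha2) and 5 lower, where 50.0% and 49.7% of named probe sets were. None passed 2-fold, in comparison with 0.899% of named probe sets higher and 0.856% lower.

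**Figure D2:**
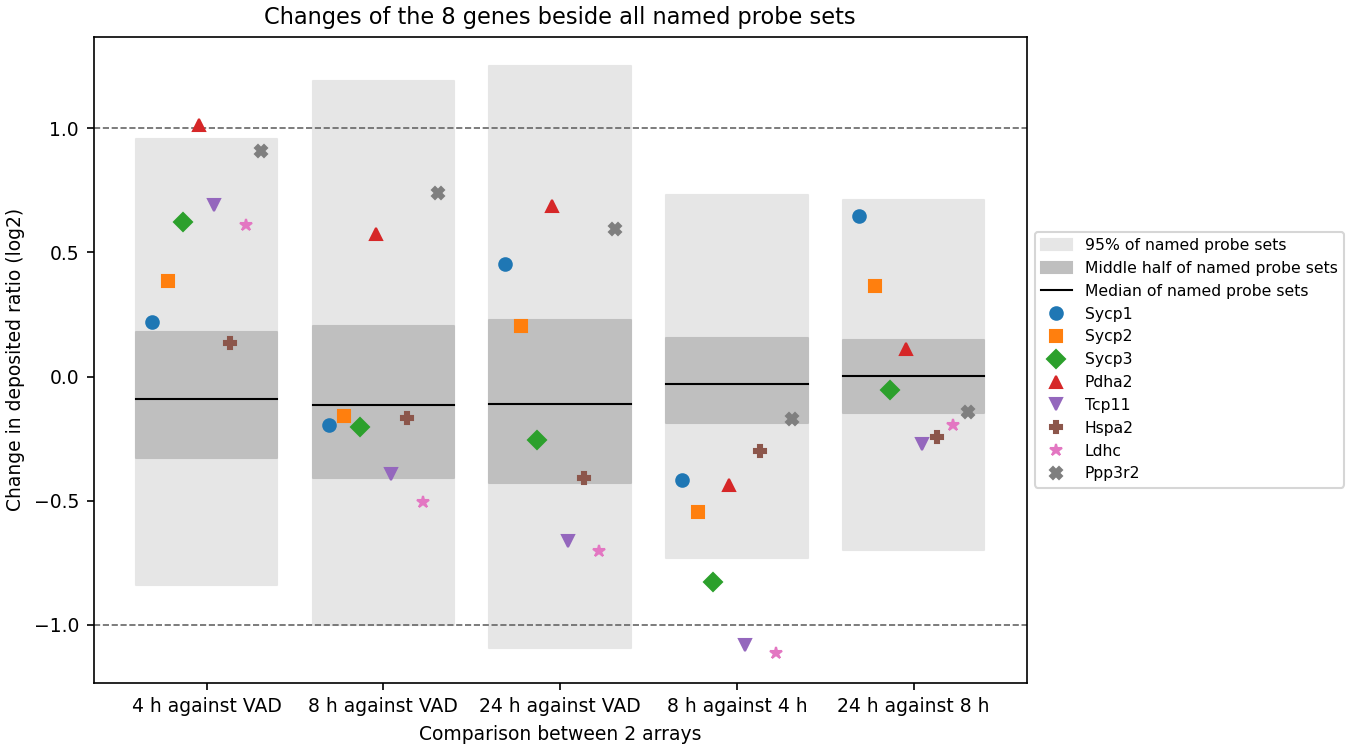
Log2 change in deposited ratio for the 8 genes (symbols) in 5 comparisons between arrays, over the middle 50% (dark band), 95% (light band) and median (line) of all 7006 named probe sets. Dashed lines mark 2-fold; all 8 symbols lie above the median at 4 h against VAD and below it at 8 h against 4 h, where Ldhc and Tcp11 pass 2-fold.

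Scaling bears on these signs. The hybridisation spike-ins are transcripts added in fixed amounts, and 9 probe sets read a smaller number of them. These 9 probe sets had median changes of -0.55, -0.58 and -0.71 at 4 h, 8 h and 24 h against VAD. At 8 h against 4 h their median was 0.01. With each array scaled on its median spike-in ratio, 5 of the 8 genes were at least 2-fold higher at 4 h than in VAD, and the medians at 8 h and 24 h were 0.32 and 0.60. That scaling shifts all probe sets of an array alike. The share of all named probe sets past 2-fold under it was not computed, so the 5 is not a trait of the 8 genes. The median of 8 h against 4 h was -0.54 under that scaling, and the count past 2-fold was 2. The position of a probe set along its transcript moved with the comparisons too. Over 3 control transcripts, probe sets at the 5' end read changes that were larger than those of 3' probe sets by 0.71, 1.09 and 1.01 at 4 h, 8 h and 24 h against VAD and by 0.38 at 8 h against 4 h. Named probe sets designed from coding sequence records, as those of Pdha2 and Hspa2 were, had a median change of 0.06 at 4 h (494 probe sets), and those designed from expressed sequence tags, as that of Tcp11 was, of -0.19 (2449 probe sets). The part of these shifts in the changes above was not tested.

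The testis forms were set beside their somatic counterparts, the related enzymes of other cells, of which 7 genes with 15 probe sets were named. Pdha1, the X-linked counterpart of Pdha2, was read in 2 ways. Its probe set from a coding sequence record had ratios of 0.858 (VAD), 1.70 (4 h), 2.05 (8 h) and 2.04 (24 h), and changes against VAD of 0.98, 1.26 and 1.25. Its probe set from an expressed sequence tag stayed between 0.889 and 0.980 on all 4 arrays. By the first probe set Pdha1 was thus further above VAD than Pdha2 at 8 h and 24 h, and by the second it stayed within 0.14 of VAD on the log2 scale. The coding sequences of Pdha1 and Pdha2 are alike, and whether either coding sequence probe set also reads the other gene was not tested.

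The other named genes of the pyruvate dehydrogenase complex and its regulators, 9 genes and 16 probe sets with Pdha1, had median changes of -0.16, -0.06 and -0.11 at the 3 times. At 4 h 6 of these probe sets were higher than VAD and 10 lower, near the 40.6% and 59.3% of named probe sets. None passed 2-fold, where 2.21% of named probe sets did so upward and 1.58% downward. Pdhb, the beta subunit that pairs with either alpha subunit, was at -0.32, -0.33 and -0.54 at the 3 times by 1 probe set and at -0.32, 0.02 and -0.29 by the other. The core subunit gene Dlat lay between -0.42 and 0.22 over 3 probe sets and 3 times. The binding protein gene Pdhx was at -0.40, -0.61 and -0.49. The kinase genes that switch the complex off went separate ways. Pdk4 was 1.12 higher at 24 h (ratios of 2.54 at 24 h and 1.17 in VAD), Pdk1 was at -0.26, -0.59 and -0.30, and Pdk2 lay between -0.37 and 0.20. Of the phosphatase genes that switch it on, Pdp2 was 1.12 higher at 8 h by 1 probe set and 0.16 higher by the other, and Pdp1 lay between -0.45 and -0.01.

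Ppp3r1, the counterpart of Ppp3r2 in other tissues, had ratios of 0.356 (VAD), 1.08 (4 h), 1.58 (8 h) and 1.70 (24 h) by 1 probe set. By the other it had 0.874 (VAD), 1.32 (4 h), 1.42 (8 h) and 1.49 (24 h). Both probe sets were higher than VAD at all times, by 1.60, 2.15 and 2.25 and by 0.60, 0.71 and 0.77. Where Ppp3r2 was highest at 4 h, both Ppp3r1 probe sets were highest at 24 h. The Ppp3r2 probe set and the second of these Ppp3r1 probe sets have an ID ending that Affymetrix gives to sets shared by more than 1 transcript. Whether either also reads the other gene was not tested. Of the catalytic calcineurin subunits, Ppp3cb was at 0.58, 0.69 and 0.88 and Ppp3ca at -0.22, -0.43 and -0.55. The calcineurin inhibitor gene Cabin1 lay between -0.54 and -0.11. In all, 3 of 6 probe sets on the calcineurin list were higher and 3 lower at each time against VAD. Of all named probe sets 40.6%, 40.1% and 41.4% were higher at 4 h, 8 h and 24 h. On the list 1 passed 2-fold upward each time, as did 2.21%, 4.04% and 4.68% of named probe sets.

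Ldhb, the heart-type lactate dehydrogenase subunit, had ratios of 0.978 (VAD), 0.812 (4 h), 0.635 (8 h) and 0.701 (24 h) by 1 probe set, and the other was also below VAD at all 3 times (-0.43, -0.78 and -0.81). At 4 h Ldhc was thus higher and Ldhb lower than VAD. At 8 h and 24 h both lay below VAD. Ldha, Hspa8 and Hspa1b were also listed as counterparts but had no probe set carrying their symbol alone. Ldhc is thus set beside Ldhb only. Among counterparts of Hspa2, the inducible chaperone gene Hspa1a stayed within 0.15 of VAD. The endoplasmic reticulum chaperone gene Hspa5 was lower by all 3 probe sets at each time, from -0.18 to -1.34, and the cytosolic chaperone gene Hspa4 by both, from -0.09 to -0.60. The mitochondrial chaperone gene Hspa9 had 1 probe set at 0.79, 1.12 and 0.98, while the other pair lay between -0.23 and 0.09. Over all 15 counterpart probe sets the medians were -0.18, -0.09 and -0.15 at 4 h, 8 h and 24 h. At 4 h 5 of the 15 were higher than VAD, against 40.6% of named probe sets. More of the 15 read chaperone genes than counterparts of Pdha2, Ppp3r2 and Ldhc. The list holds no counterpart of the Sycp genes or Tcp11, so its medians are not matched to those of the 8 genes.

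**Figure D3:**
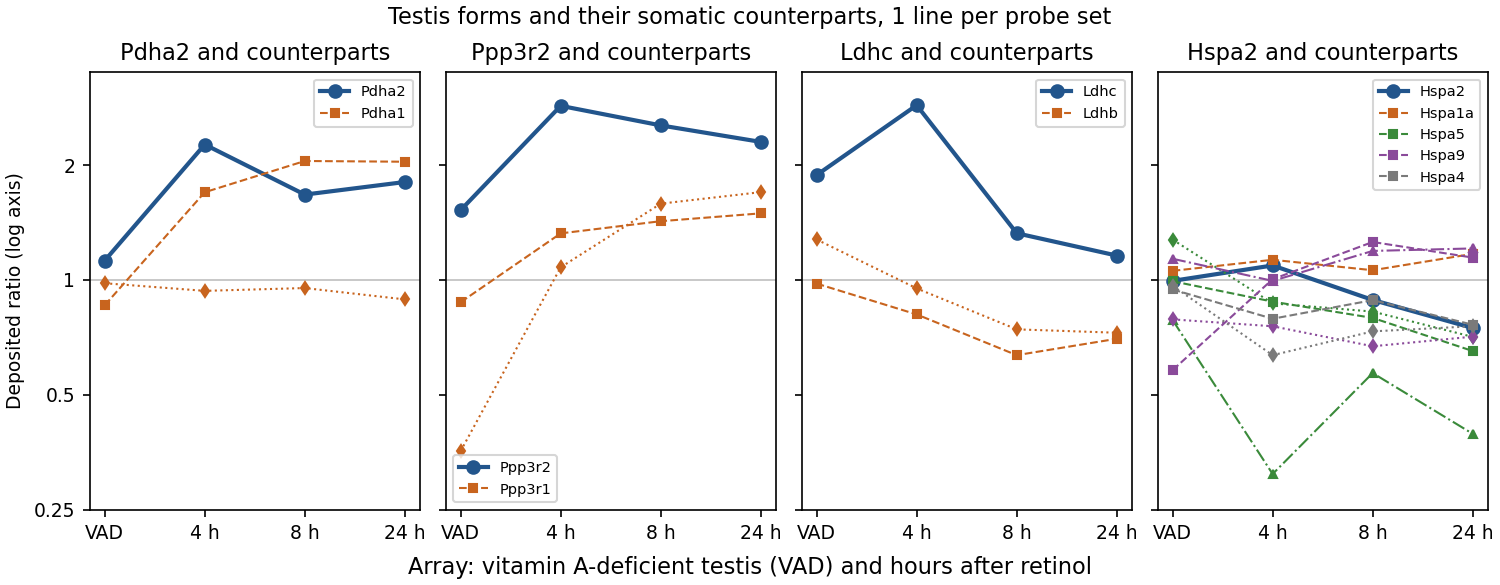
Deposited ratio (log axis) of Pdha2, Ppp3r2, Ldhc and Hspa2 (blue) and of their named somatic counterparts (other colours, 1 line per probe set) on the 4 arrays. One Pdha1 probe set climbs to 2.05 at 8 h and the other stays under 1, both Ppp3r1 lines are highest at 24 h, and both Ldhb lines lie below their VAD values after retinol.

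The other named genes on the list of the synaptonemal complex and recombination did not all take the course of Sycp3. Of 43 listed genes of the synaptonemal complex and recombination 9 were named, 6 of them beside the 3 Sycp genes, with 8 probe sets. These had medians of 0.13, 0.08 and 0.09 at 4 h, 8 h and 24 h against VAD, and -0.06 at 8 h against 4 h. None of the 8 passed 2-fold, where 2.21% of named probe sets did so upward and 1.58% downward at 4 h against VAD. The cohesin gene Smc3 was at 0.34 at 4 h and 0.28 at 8 h, and Smc1a lay between -0.26 and 0.19 over 2 probe sets. Brca1, a DNA repair gene that acts in meiosis too, was at 0.36 and 0.72 at 4 h over 2 probe sets, and Brca2, which loads recombinases on DNA, was at -0.23, -0.43 and -0.82. The single-strand binding protein gene Rpa2 was at 0.10, 0.26 and 0.48, and the histone gene H2ax at -0.23, -0.25 and -0.33. The meiosis-specific cohesins and recombinases on the list had no probe set carrying their symbol alone and are not analysed here. The 6 genes do not stand in for them.

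Among 10 other named genes listed for spermatocytes, with 15 probe sets, the medians were 0.09, -0.06 and -0.15 at the 3 times and -0.22 at 8 h against 4 h. The list also holds genes tied to haploid cells or sperm, such as Crem and Adam2, so its medians do not read spermatocytes alone. At 4 h 8 of the 15 probe sets were higher and 6 lower than VAD, against 40.6% and 59.3% of named probe sets. At 8 h 13 of 15 were lower than at 4 h, where 54.6% of named probe sets were. Hspa1l, a testis chaperone gene, had ratios of 1.07 (VAD), 1.57 (4 h), 1.03 (8 h) and 1.33 (24 h), with the 4 h array highest. The sperm surface gene Adam2 was at 0.66 at 4 h, and Adam3a was at 0.09 at 4 h and -1.72 at 8 h. Crem, the regulator of haploid cell genes, was at -1.44 at 8 h by 1 of 4 probe sets and between -0.08 and 0.07 by the others. Cst8, a reproductive tract cystatin gene, was at -0.26 and -0.87 at 8 h over 2 probe sets. The testis histone genes H1f6 and H2bc1, made in spermatocytes, were at -0.08 and 0.00 at 4 h and at -0.01 and -0.06 at 8 h.

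Spermatid genes, which belong to the haploid cells after meiosis, moved beside the 8 genes. Of 20 named probe sets (16 genes), 16 were higher at 4 h than in VAD and 18 were lower at 8 h than at 4 h, 10 of them at least 2-fold. Over all named probe sets the shares were 40.6%, 54.6% and 1.04%. The medians of the spermatid probe sets were 0.58 at 4 h, -0.38 at 8 h and -0.57 at 24 h against VAD and -0.89 at 8 h against 4 h, where the 8 genes had 0.61, -0.18, -0.03 and -0.49. At 4 h the sperm chromatin gene Tnp2 was at 1.87, Cmtm2a at 1.41 and Fabp9, a fatty acid binding protein gene of the testis, at 0.46. At 8 h against VAD Tnp2 was at -0.08, Cmtm2a at -0.34 and Fabp9 at -1.38. The probe sets of the hyaluronidase gene Spam1 were at 1.22, 0.46 and 0.97 at 4 h. In the same order they were at -1.44, -0.04 and 0.30 at 8 h against VAD. Spermatogonia and meiotic entry genes (6 genes, 13 probe sets) had medians of 0.01 at 4 h, 0.07 at 8 h and 0.29 at 24 h. Kit was at 0.76 and 1.25 at 24 h, and Uchl1 between 0.60 and 0.96 over 3 probe sets. Gfra1 was at 0.19 and 0.29 at 24 h, and Ret between -0.95 and -0.12. At 4 h the list ran from -0.21 for Ret to 0.91 for 1 Gfra1 probe set, with the other at 0.31. Meioc was at 0.26 at 4 h, 0.62 at 8 h and 0.17 at 24 h. At 8 h against 4 h the median of this list was 0.03. Markers of cells around the germ line lay nearer to VAD at 4 h in the median. The Sertoli list was at 0.19 (15 of 24 probe sets higher), the Leydig list at 0.17 (8 of 14) and the macrophage and leukocyte list at 0.03 (10 of 17), against 40.6% of named probe sets higher. At 8 h against 4 h these lists were at 0.03, -0.10 and 0.13. Single probe sets moved further. At least 2-fold above VAD were 7 Sertoli probe sets at 8 h and 6 at 24 h (4.04% and 4.68% of named probe sets). At 24 h 1 Leydig probe set was 2-fold higher and 4 lower, and 4 leukocyte probe sets were higher and 1 lower (4.68% and 3.41%). The part of the spermatid genes or of cell composition in the changes of the 8 genes was not tested.

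**Figure D4:**
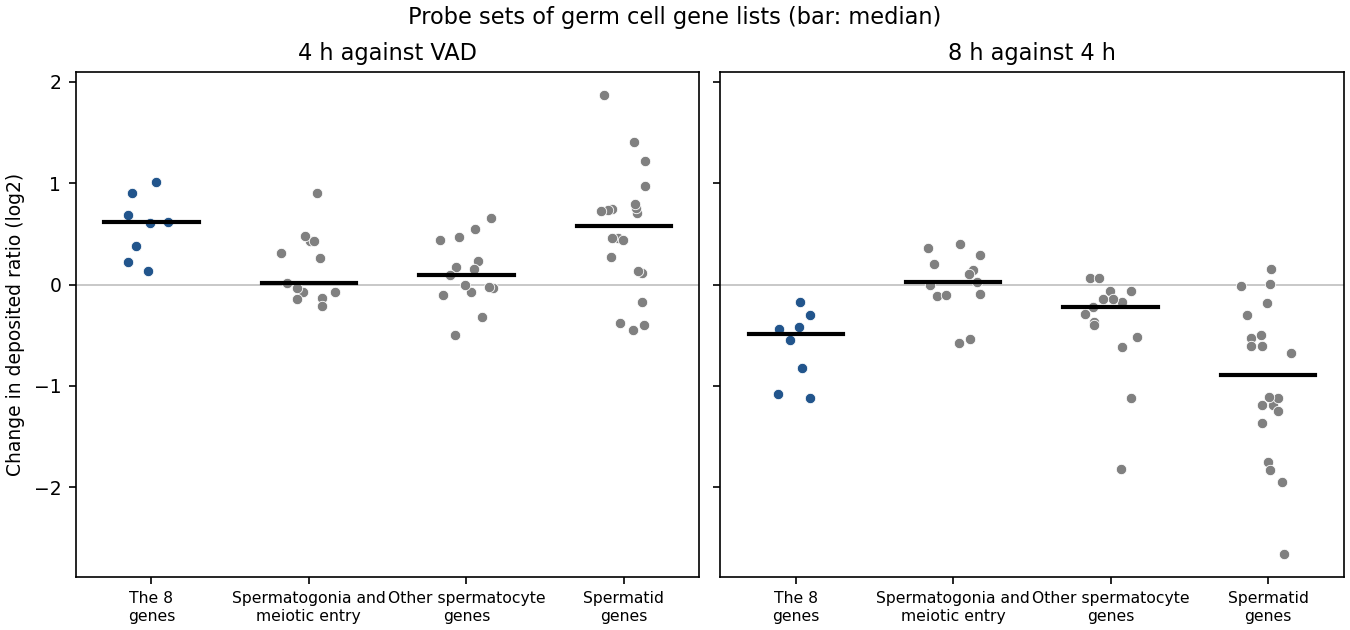
Log2 change of each probe set at 4 h against VAD (left) and at 8 h against 4 h (right) for the 8 genes (blue) and for 3 germ cell lists (grey), with bars at the medians and random sideways spread for visibility. The medians of the 8 genes (0.61 and -0.49) and of the spermatid genes (0.58 and -0.89) lie away from 0 in both panels, and those of spermatogonia and meiotic entry genes (0.01 and 0.03) lie near it.

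The mean course of the 8 genes, taken on the log2 scale, was 1.27 (VAD), 1.88 (4 h), 1.23 (8 h) and 1.26 (24 h) as a ratio. By Euclidean distance over the log2 ratios of the 4 arrays, the 6 nearest of the other named genes were Tnfrsf4 (0.21), Nr0b2 (0.21), Fshr (0.23), Ptf1a (0.26), Robo1 (0.27) and Kcna5 (0.27). Fshr, the follicle-stimulating hormone receptor of Sertoli cells, had mean ratios of 1.17 (VAD), 1.65 (4 h), 1.27 (8 h) and 1.30 (24 h) over 2 probe sets. None of the 6 is on the germ cell lists used here. Nearest to Pdha2 were Pmch (0.27), Crhbp (0.29) and Gabrp (0.32). With 4 arrays such likeness describes these ratios only.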

How the data were processed

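Whole rat testis RNA was read on 4 arrays, 1 per group. Per the labels' protocols, biotinylated cRNA was made from 10 micrograms of total RNA. The values deposited by the authors are linear ratios per probe set. GCOS and MAS5 are named in the submitters' processing notes; the sources used here do not give the step from signals to ratios or the scaling. Of 8799 probe sets 59 were controls, 7006 carried 1 gene symbol in the platform annotation, 308 several and 1426 were not listed. Of the 7006, 6985 Entrez IDs were found in the RefSeq table of GRCr8, and no symbol needed an update. Ratios were put on the log2 scale and subtracted between arrays (Python 3.11.15, pandas 2.3.3, numpy 2.4.6), with calls at 2-fold. No test, filter or pseudocount was used. Depth does not apply to arrays, and their number limits the precision. The noise of 1 probe set is the SD of the difference between 2 probe sets of a gene divided by the square root of 2, tested on simulated data. Promoter windows came from RefSeq (GRCr8), and all 8 genes matched. Alternatives covered scaling, reference, filter, threshold and 1 value per gene.

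The members and lists were chosen with earlier results of these data known. The genes named beside the 8 are the counterparts, the pyruvate dehydrogenase and calcineurin genes, up to 4 members of each list with the largest change against VAD, and the 6 genes nearest to the mean and 3 nearest to a gene past 2-fold against VAD. Of the lists of cells around the germ line only counts and medians are given, and a few other list members were named after their values were seen.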

Additional observations from a re-analysis of the deposited data

How the results depend on the processing

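Each count past 2-fold and each median of the 8 genes was recomputed under the alternatives. At 4 h against VAD the count of 1 became 2 with arrays centred on their medians, 5 with spike-in scaling (median 1.16), 4 against a ratio of 1 in place of VAD and 5 at a 1.5-fold threshold. Only Hspa2 has a VAD ratio within 10% of 1, so with that filter the count was 0 and the median 0.13. At 8 h against VAD the count of 0 became 2 and the median 0.32 with spike-in scaling, 1 and 0.085 against a ratio of 1, and the count 1 at 1.5-fold. At 24 h the count of 0 became 3 and the median 0.60 with spike-in scaling, 1 and 0.38 against a ratio of 1, and the count 4 at 1.5-fold, while centring gave a median of 0.084. At 8 h against 4 h the count of 2 became 0 with the VAD filter, which leaves 1 gene, and was 2 under both scalings. At 24 h against 8 h spike-in scaling gave a median of 0.022 and the 1.5-fold threshold a count of 1. Scaling shifts all probe sets of an array alike. The shares of all named probe sets past either threshold were not computed under these alternatives. The recomputed counts thus describe the 8 genes only, and whether they differ from other probe sets cannot be read from them. Pdha2 at 4 h against VAD was 1.56 higher with spike-in scaling. The cause of the spike-in shift was not tested. The other 36 recomputed values, including the changes of Tcp11 and Ldhc between 8 h and 4 h, kept their direction and size within the noise of 1 probe set or 1.5 times the count. Taking 1 value per gene changed nothing, since each gene has 1 probe set. No paired analysis was possible because each group is 1 array. Signal over background is not in these values, so its limit on single genes is unknown.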
